A study of Mus musculus with 12 samples.

Results

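The genes described here are 9 cadherins (Cdh1, Cdh2, Cdh3, Cdh4, Cdh6, Cdh11, Cdh13, Cdh16 and Cdh17) and the epithelial surface protein Epcam, 10 of the 18193 genes named on the array. They were chosen by name, with earlier results of these data known. Every probe set that carries 1 of these symbols alone was taken, which gave 20 of 34945 such probe sets. The study profiled mouse kidney by Affymetrix expression array at 3 stages: kidney tissue, renal progenitor cells isolated from that organ and grown on a fibroblast feeder layer, and organoids that the progenitors formed in 3D Matrigel, a gelled basement membrane extract. Each stage was sampled from medulla and from cortex, with 2 arrays labelled as biological replicates in each of the 6 groups, 12 arrays in all. Mouse strain, sex, age, feeder cell origin, passage, days in Matrigel and the number of pooled animals or cultures are not given in the labels. The labels do not say whether a cortex and a medulla sample came from the same animal, so the p-values measure the spread between these arrays.

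Cadherins are calcium-dependent adhesion proteins of the cell surface. A classical cadherin binds its like on the neighbouring cell, and its cytoplasmic tail holds p120 catenin (Ctnnd1) and beta-catenin (Ctnnb1) or plakoglobin (Jup), which reach actin through alpha-catenin (Ctnna1). E-cadherin is the textbook epithelial type and N-cadherin the textbook mesenchymal type, but the kidney departs from this rule, because proximal tubule epithelium carries N-cadherin and cadherin-6 while more distal nephron segments and collecting duct carry E-cadherin.

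Except for control probe sets and summed signals, values below are log2(signal + 15.2), where signal is the expression value on the deposited arrays and 15.2 is the 25th percentile of all values. This is called the log2 level, and a difference is the first group's mean minus the second's. It understates changes of dim probe sets. Levels of different probe sets are not set against each other, because probe sets differ in brightness. A difference was called when its limma p-value, adjusted by Benjamini-Hochberg over 24203 probe sets, was below 0.05. Where a gene had several probe sets, the brightest by its mean over 12 arrays stood for it and is named the main probe set. All 10 genes passed the filter on dim probe sets, which asked for a value over the median of its own array on both replicates of any 1 group. So did 18 of the 20 probe sets, and the 2 left out were dim probe sets of Cdh4 and Cdh13. Where a probe set passed only through groups in which it was high, its calls against the other groups are a description.

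Stage differences were very common on these arrays, so the counts for the 10 genes need their background. Between progenitors and tissue, 72.2% of the 12998 genes tested were called. Replicate arrays correlated at 0.976 to 0.988 in 5 groups and at 0.934 in the medulla organoid group. The organoid arrays stood apart in their spiked poly-A controls, whose median on the deposited log2 scale was 7.96 to 8.83 on tissue arrays, 7.03 to 7.37 on progenitor arrays and 1.22 to 1.88 on organoid arrays. The Gapdh 3' minus 5' control difference was -0.23 to 0.18 on tissue arrays, -0.41 to -0.30 on progenitor arrays and 0.87 to 1.67 on organoid arrays. For actin, the 3' minus 5' difference was 0.94 to 1.63 on tissue arrays. It was 0.16 to 0.19 on progenitor arrays and -0.002 to 0.15 on organoid arrays, so tissue stood apart there. Each of these controls also set every progenitor array apart from every tissue array. Stage and the differences in control probe sets cannot be told apart. This holds for every comparison between stages below, progenitors against tissue included, and for every organoid comparison. Tissue medulla arrays carried 8 of 8 proximal tubule markers above the array median, with a summed signal of 114670 to 158869, against 156317 to 169167 in tissue cortex. The proximal tubule lies in cortex and, by its straight part, in outer medulla. Podocyte markers summed to 4736 to 5814 in tissue medulla and to 5459 to 7214 in tissue cortex. The labels do not say how cleanly medulla was separated from cortex, and this was not tested. In progenitors the proximal tubule markers summed to 181 to 482, and in organoids to 907 to 1553.

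In progenitor cultures against tissue every one of the 10 genes was called, 8 higher and 2 lower, where 36.7% of all genes were called higher and 35.6% lower. Cdh17 is among the 8 and passed the filter on dim probe sets through medulla progenitors alone, so its call is a description. As the genes were chosen with earlier results known, the counts describe them and are not a test. The arrays of the 2 stages did not overlap for 8 of the 10, against 73% of all genes. The median difference over the 10 genes was 1.14, against 0.03 over all genes. In organoids against progenitors, 6 of the 10 were lower, none was higher and 4 were not called, where 72.2% of all genes were called (28% higher and 44.2% lower). The arrays did not overlap for 7, against 60.9% of all genes. The median was -0.70 over the 10 genes and -0.29 over all genes. In organoids against tissue, 3 were higher, 6 were lower and 1 was not called, where 79.4% of all genes were called (33% higher and 46.4% lower). The arrays did not overlap for 6, against 66.2% of all genes. The median there was -0.59 over the 10 genes and -0.28 over all genes. The 3 stage comparisons share arrays and are not independent of each other. In bulk RNA, fewer cells of a type and less RNA per cell cannot be told apart. The shift of all genes in organoids depended on the scaling: with each array scaled to a common 75th percentile it was -0.41 against progenitors and -0.51 against tissue.

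**Figure D1:**
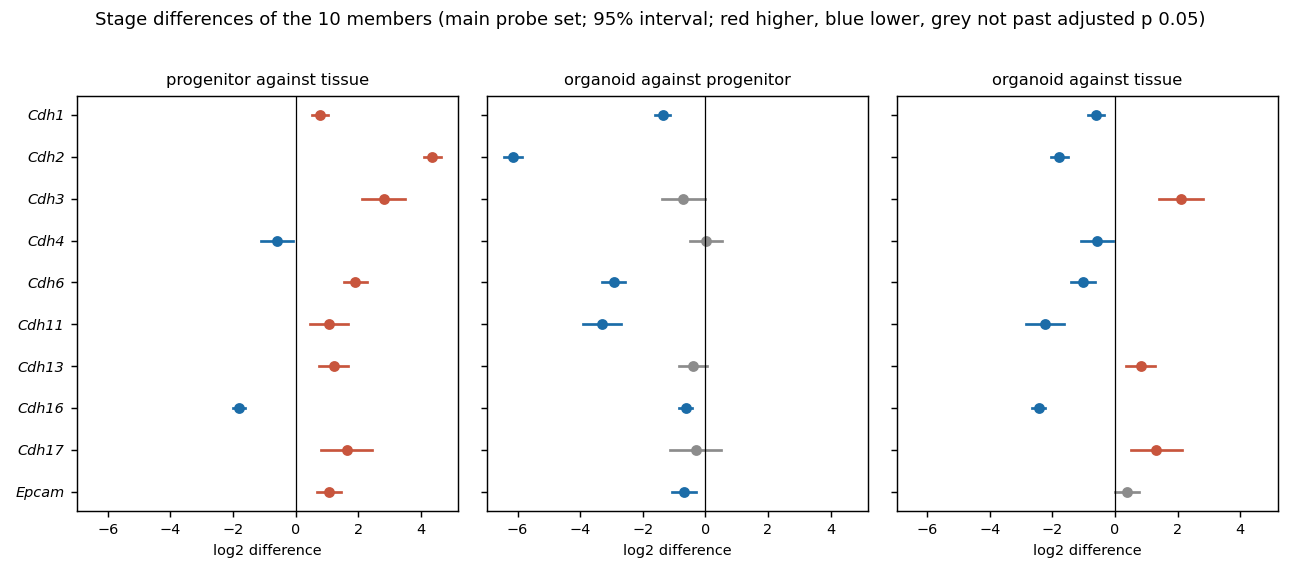
Log2 difference of each of the 10 genes (main probe set, horizontal axis) in progenitors against tissue, organoids against progenitors and organoids against tissue, with points for the estimates and bars for their 95% intervals, red for higher, blue for lower and grey for not called. Cdh2 has the largest difference in the first 2 panels, 4.36 and -6.15, and Cdh16 is on the lower side in all 3.

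Among the epithelial members, Cdh1, E-cadherin, was bright on every array. Tissue had log2 levels of 13.44 and 12.92 in medulla and 12.69 and 12.70 in cortex. Progenitors had 13.80 and 13.45 in medulla and 13.82 and 13.75 in cortex. Organoids had 12.33 and 12.28 in medulla and 12.42 and 12.34 in cortex. The lowest progenitor array was just above the highest tissue array, and every organoid array was below every tissue array. Cdh1 was 1.71-fold higher in progenitors than in tissue (difference 0.77 ± 0.12, SE, adjusted p = 7.43e-05, limma). It was 2.58-fold lower in organoids than in progenitors (-1.37 ± 0.12, adjusted p = 4.86e-07). Against tissue, organoids were lower by less (-0.60 ± 0.12, adjusted p = 4.5e-04). Set against the median of all genes, that last difference was -0.31, and with quantile normalization it was 0.09, so its side of the median depended on the scaling.

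Cdh16, kidney-specific or Ksp-cadherin, is a short-tailed cadherin of the basolateral membrane of tubule epithelium. Its log2 levels in tissue were 14.32 and 14.43 in medulla and 14.27 and 14.43 in cortex. In progenitors they were 12.57 and 12.66 in medulla and 12.54 and 12.46 in cortex. In organoids they were 12.01 and 11.67 in medulla and 12.01 and 12.01 in cortex. The 3 stages did not overlap, and this was the only one of the 10 genes, by main probe sets, whose level was called lower at both successive steps. Progenitors were 3.5-fold lower than tissue (-1.81 ± 0.09, adjusted p = 4.09e-09). Organoids were 1.55-fold lower than progenitors (-0.63 ± 0.09, adjusted p = 5.58e-05), which was -0.34 relative to the median of all genes. Organoids were 5.43-fold lower than tissue (-2.44 ± 0.09, adjusted p = 2.47e-10). Cortex progenitors, where the proximal tubule markers had their lowest sum (181 to 245), still had Cdh16 at 12.54 and 12.46.

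Epcam is not a cadherin. It is a transmembrane protein of epithelial surfaces that binds claudin-7 and modulates cadherin junctions. Its main probe set had log2 levels of 13.15 and 12.18 in tissue medulla and 11.36 and 11.76 in tissue cortex. Progenitors had 13.10 and 13.34 in medulla and 13.20 and 13.06 in cortex. Organoids had 12.33 and 12.22 in medulla and 12.75 and 12.65 in cortex. The first tissue medulla array lay within the progenitor range, and the other 3 tissue arrays lay below it. Epcam was 2.09-fold higher in progenitors than in tissue (1.06 ± 0.17, adjusted p = 1.45e-04) and 1.61-fold lower in organoids than in progenitors (-0.69 ± 0.17, adjusted p = 0.00355), a step of -0.40 relative to the median of all genes. Organoids and tissue overlapped (0.38 ± 0.17, adjusted p = 0.0638, 95% interval -0.003 to 0.76). The other Epcam probe set, of a kind whose suffix marks probes that can also match other transcripts, was called higher in progenitors than in tissue (0.45 ± 0.16, adjusted p = 0.0277) and gave -0.09 ± 0.16 in organoids against progenitors (adjusted p = 0.641), so the second step was seen by 1 of the 2 probe sets.

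Epcam and Cdh6 are the 2 of the 10 genes with a promoter in the RefSeq promoter table used here (build GRCm38.p6), and the 250 bases before each gene's start are shown because they carry different numbers of the E-box that the Cdh1 repressors of the Snail and Zeb families bind. The motif searched was CACCTG on both strands (CAGGTG on the other), and its matches are in capitals. The Epcam promoter (chr17:87635729-87635978, plus strand) held 2 matches, which begin 187 and 19 bases before the gene start. The Cdh6 promoter (chr15:13173676-13173925, minus strand) held none. Of 32851 promoters of the same length, 17.2% held at least 1 match and 2.1% held at least 2. A match is a run of letters and was not tested as a binding site.
Epcam: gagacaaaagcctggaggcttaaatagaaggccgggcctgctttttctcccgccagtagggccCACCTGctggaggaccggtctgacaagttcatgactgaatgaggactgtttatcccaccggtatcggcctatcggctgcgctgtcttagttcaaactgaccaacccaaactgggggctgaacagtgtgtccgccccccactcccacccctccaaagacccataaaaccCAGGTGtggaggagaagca
Cdh6: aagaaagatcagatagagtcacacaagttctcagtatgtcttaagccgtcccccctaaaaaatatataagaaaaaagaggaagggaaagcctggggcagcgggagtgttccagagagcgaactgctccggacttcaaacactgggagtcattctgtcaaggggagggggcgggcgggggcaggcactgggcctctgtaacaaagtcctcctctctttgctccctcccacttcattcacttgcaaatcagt

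Cdh2, N-cadherin, is the classical cadherin of neural and mesenchymal cells and of proximal tubule epithelium, and by main probe set its differences between progenitors and the other stages were the largest of the 10 genes. Tissue had log2 levels of 8.56 and 8.50 in medulla and 8.95 and 8.57 in cortex. Progenitors had 13.04 and 12.74 in medulla and 13.10 and 13.16 in cortex. Organoids had 7.77 and 7.89 in medulla and 5.88 and 5.91 in cortex. No 2 stages overlapped, and the cortex organoids were the lowest arrays. Cdh2 was 20.6-fold higher in progenitors than in tissue (4.36 ± 0.13, adjusted p = 3.29e-11). It was lower in organoids than in progenitors (-6.15 ± 0.13, adjusted p = 1.12e-11). Over 23 settings of the processing, fit and arrays used, this difference ran from -6.39 to -5.40. The -5.40 came from the mean of both probe sets. Cortex organoids were below their array medians for the main probe set, so the size also depends on the offset. The second probe set gave 4.74 ± 0.27 and -4.64 ± 0.27 for these steps (adjusted p = 1.03e-08 for the first). Against tissue the probe sets diverged: the main one was lower in organoids (-1.78 ± 0.13, adjusted p = 5.61e-08), and the other gave 0.10 ± 0.27 (adjusted p = 0.74). So a level of Cdh2 in organoids below that of tissue was not seen by both.

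Cdh6, cadherin-6 or K-cadherin, is found in the forming nephron and in proximal tubule. Tissue had log2 levels of 9.06 and 8.73 in medulla and 8.19 and 8.78 in cortex. Progenitors had 10.70 and 10.52 in medulla and 10.53 and 10.61 in cortex. Organoids had 6.72 and 7.18 in medulla and 8.29 and 8.49 in cortex. All progenitor arrays lay above all others, and the cortex organoids lay within the tissue range. Cdh6 was 3.75-fold higher in progenitors than in tissue (1.91 ± 0.17, adjusted p = 6.84e-07) and 7.61-fold lower in organoids than in progenitors (-2.93 ± 0.17, adjusted p = 1.88e-08). Its second probe set gave 2.04 ± 0.18 and -1.75 ± 0.18 for the same steps. In organoids against tissue the main probe set was called lower (-1.02 ± 0.17, adjusted p = 1.3e-04), and the second gave 0.30 ± 0.18 (adjusted p = 0.153).

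Cdh11, OB-cadherin, is a cadherin of osteoblasts, fibroblasts and other mesenchyme. Tissue had log2 levels of 9.54 and 8.23 in medulla and 8.39 and 9.37 in cortex. Progenitors had 10.45 and 10.25 in medulla and 9.42 and 9.65 in cortex. Organoids had 7.83 and 7.80 in medulla and 5.31 and 5.65 in cortex. Tissue and progenitor arrays overlapped, and all organoid arrays were below both. Cdh11 was 2.09-fold higher in progenitors than in tissue by its main probe set (1.06 ± 0.28, adjusted p = 0.00466), while the other gave 0.15 ± 0.28 (adjusted p = 0.639). It was 9.83-fold lower in organoids than in progenitors (-3.30 ± 0.28, adjusted p = 4.65e-07), and the other probe set was also called (-1.14 ± 0.28, adjusted p = 0.00277). That other probe set passed the filter on dim probe sets through progenitors alone, the stage where it was highest, so its call is a description. Organoids were below tissue as well (-2.24 ± 0.28, adjusted p = 1.04e-05).

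**Figure D2:**
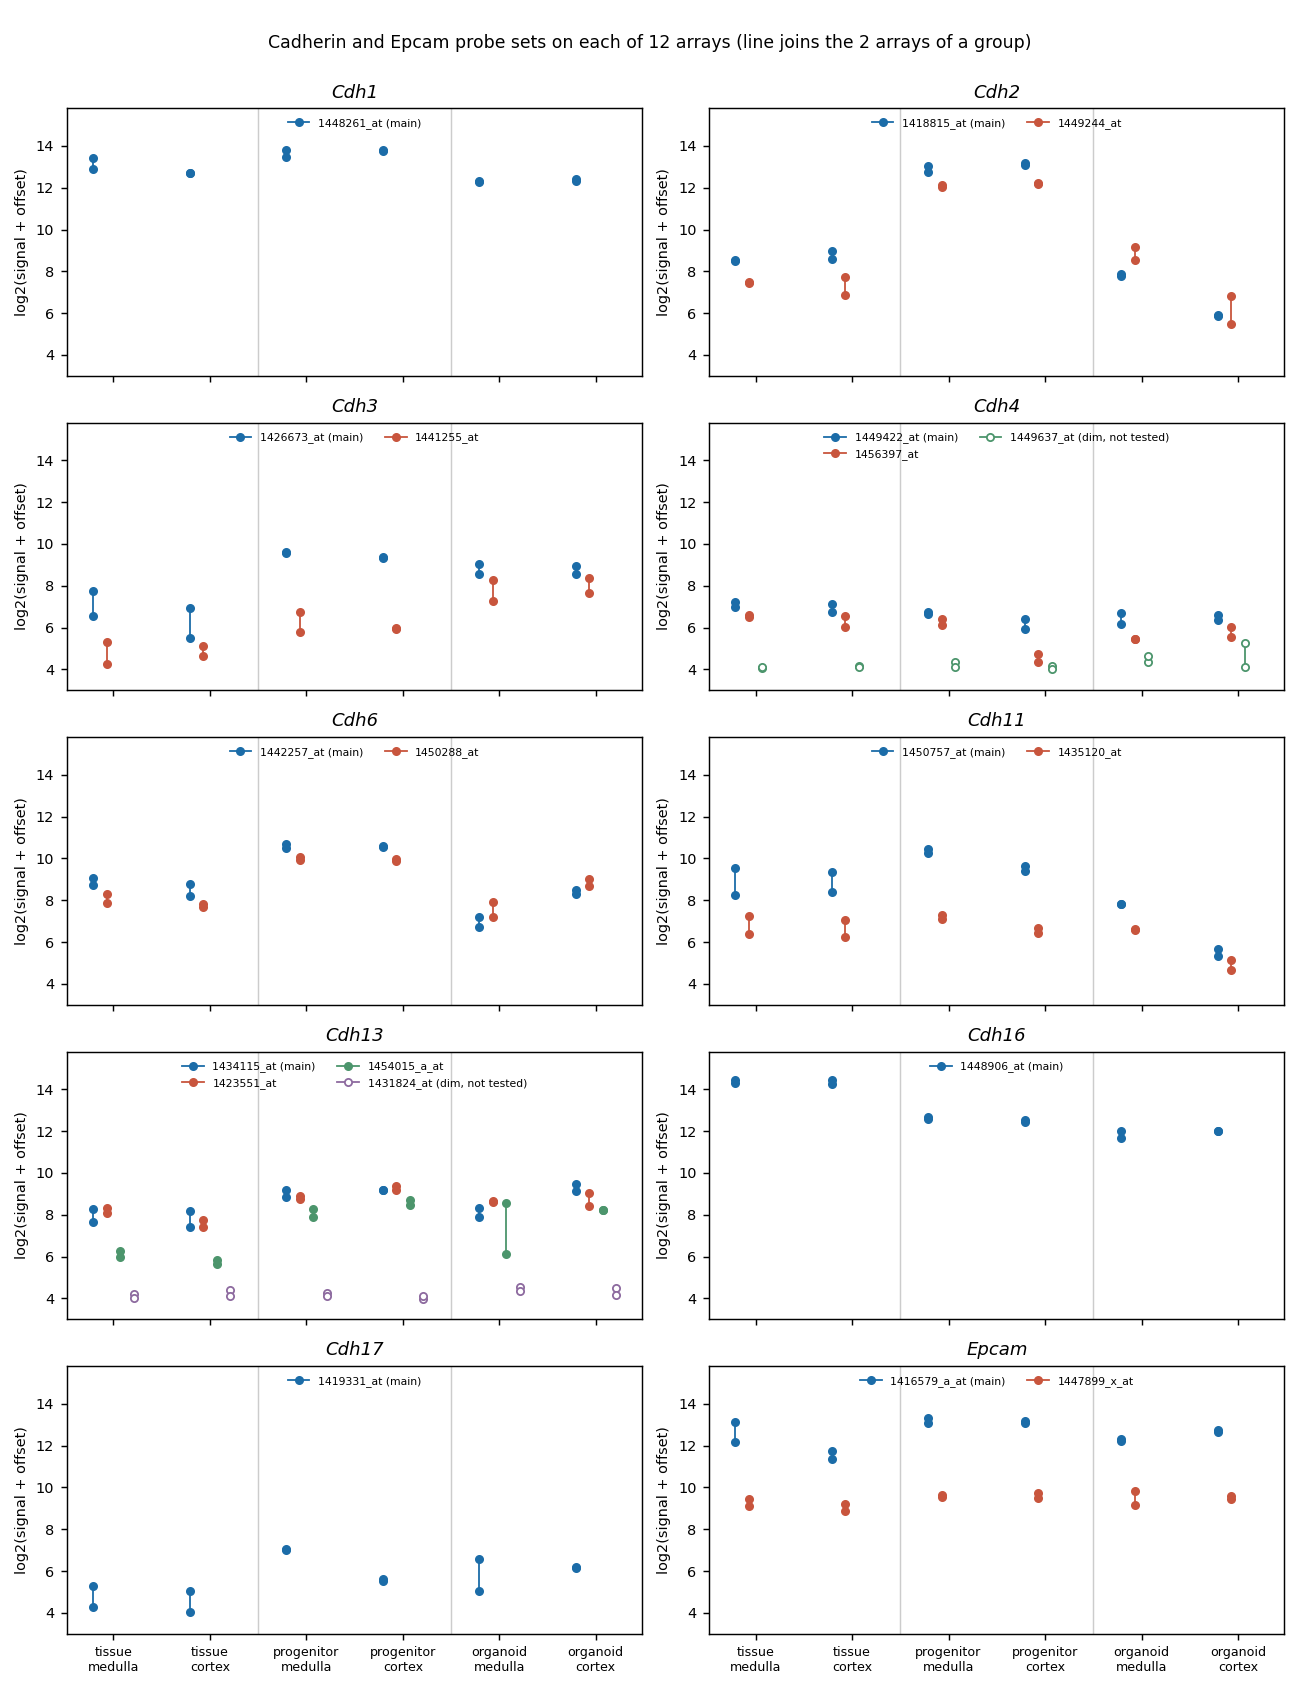
Log2 level (vertical axis, log2 of signal plus offset) of every probe set of the 10 genes on each of the 12 arrays, with tissue, progenitor and organoid groups from left to right, medulla left of cortex, a line joining the 2 arrays of a group and open points for the 2 dim probe sets that were not tested. Cdh2 is near 13 in progenitors against 8.50 to 8.95 in tissue, and Cdh16 lies above 14 in tissue alone.

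Fibroblast genes need to be read beside Cdh11 and Cdh2, because progenitors were grown on fibroblasts. The 10 fibroblast markers listed (Col1a1, Col1a2, Col3a1, Pdgfra, Pdgfrb, Dcn, Lum, Thy1, Prrx1 and Twist2) had a summed signal of 5095 to 8417 in tissue medulla and 3867 to 7138 in tissue cortex. In progenitors the sum was 12997 to 14781 in medulla and 10505 to 10674 in cortex. In organoids it was 8737 to 8751 in medulla and 2339 to 2789 in cortex. Of the 10 markers, 9 were above the array median on both arrays in each progenitor group and in medulla organoids, 8 in tissue medulla, 7 in tissue cortex and 4 in cortex organoids. The sum weighs the collagens most, and the markers did not all run with it. In progenitors against tissue 6 of the 10 were called higher, 3 lower and 1 neither way (median 1.61). There 36.7% of all genes were called higher and 35.6% lower. Pdgfra, Pdgfrb and Lum were below every tissue array on every progenitor array. In organoids against tissue 4 were called higher and 6 lower (median -1.20), where 33% of all genes were called higher and 46.4% lower. In medulla organoids against cortex organoids 8 were called higher and none lower (median 2.16), where 7.1% and 9.19% of all genes were. Medulla organoids were above every tissue array for Col1a1, at 12.03 and 11.79 against 6.42 to 6.73, and below every tissue array for Lum. Cdh2 and Cdh11 had their highest group means in progenitors and their lowest in cortex organoids by main probe set. The part of the fibroblast genes in the Cdh2 and Cdh11 differences was not tested.

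**Figure D3:**
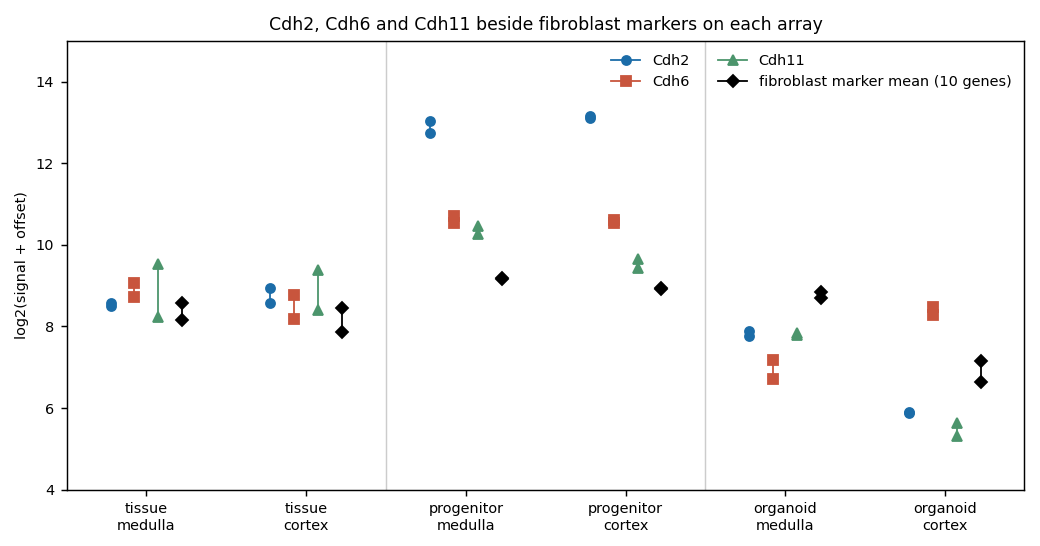
Log2 levels (vertical axis) of Cdh2, Cdh6 and Cdh11, by main probe set, and the mean log2 level of the 10 fibroblast markers, on each array, with stages from left to right and medulla left of cortex. Cdh2, Cdh11 and the marker mean are lower in cortex than in medulla organoids, and Cdh6 runs the other way, at 6.72 and 7.18 in medulla organoids against 8.29 and 8.49 in cortex organoids.

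Cdh3, P-cadherin, is a classical cadherin of basal epithelial layers and placenta, and RefSeq places its gene beside Cdh1 on chromosome 8. Tissue had log2 levels of 7.73 and 6.56 in medulla and 6.95 and 5.48 in cortex. Progenitors had 9.58 and 9.63 in medulla and 9.34 and 9.39 in cortex. Organoids had 9.03 and 8.58 in medulla and 8.95 and 8.57 in cortex. All culture arrays lay above all tissue arrays. Cdh3 was 7.0-fold higher in progenitors than in tissue (2.81 ± 0.32, adjusted p = 5.98e-06) and 4.30-fold higher in organoids than in tissue (2.10 ± 0.32, adjusted p = 5.67e-05). Between organoids and progenitors its 2 probe sets went opposite ways. The main probe set gave -0.70 ± 0.32 (adjusted p = 0.0641, 95% interval -1.40 to -0.01), and the dimmer one was called higher (1.79 ± 0.35, adjusted p = 5.61e-04). The dimmer one passed the filter on dim probe sets through organoids alone, where it was highest, so its call is a description. The direction of that step is not settled.

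Cdh13, T-cadherin, is anchored in the membrane by a lipid, lacks a cytoplasmic tail and is known from endothelium and smooth muscle, where it binds adiponectin. Tissue had log2 levels of 8.26 and 7.67 in medulla and 7.44 and 8.18 in cortex. Progenitors had 8.86 and 9.18 in medulla and 9.18 and 9.20 in cortex. Organoids had 7.90 and 8.31 in medulla and 9.14 and 9.46 in cortex. Progenitors were above all tissue arrays, and medulla organoids lay within or just above the tissue range. Cdh13 was 2.32-fold higher in progenitors than in tissue (1.22 ± 0.21, adjusted p = 2.18e-04), and both other tested probe sets were called in the same direction. Organoids were also higher than tissue (0.82 ± 0.21, adjusted p = 0.00327). The step to organoids was -0.40 ± 0.21 (adjusted p = 0.104). The 8 endothelial markers listed went the other way, with summed signals of 407 to 522 in progenitors and 303 to 461 in organoids, against 7652 to 15580 in tissue.

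Cdh17, LI-cadherin, is an adhesion protein of intestinal epithelium and, in rat, of liver. It was dim: tissue had log2 levels of 5.28 and 4.27 in medulla and 5.05 and 4.06 in cortex. Progenitors had 7.06 and 6.99 in medulla and 5.62 and 5.51 in cortex. Organoids had 5.03 and 6.58 in medulla and 6.16 and 6.19 in cortex. Progenitor arrays lay above tissue arrays, the medulla ones furthest, and the 2 medulla organoid arrays lay far apart. Cdh17 passed the filter on dim probe sets through medulla progenitors alone, the group where it was highest, so its calls against tissue are a description: 1.63 ± 0.37 in progenitors (adjusted p = 0.00182) and 1.32 ± 0.37 in organoids (adjusted p = 0.00578). The step from tissue to progenitors was 2.25 ± 0.53 in medulla (adjusted p = 0.0029) and 1.01 ± 0.53 in cortex, where it was not called (adjusted p = 0.119). Between organoids and progenitors the difference was -0.31 ± 0.37 (adjusted p = 0.474, 95% interval -1.12 to 0.50).

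Cdh4, R-cadherin, is a classical cadherin described in retina and in the developing kidney. Its log2 levels were 6.99 and 7.24 in tissue medulla and 7.15 and 6.76 in tissue cortex. They were 6.74 and 6.65 in medulla and 6.41 and 5.92 in cortex progenitors. Organoids had 6.18 and 6.70 in medulla and 6.36 and 6.58 in cortex. Every culture array was below every tissue array, by a small margin. Cdh4 was called lower in progenitors (-0.60 ± 0.23, adjusted p = 0.0366) and in organoids (-0.58 ± 0.23, adjusted p = 0.0384) than in tissue. These calls were near the threshold. They held in 14 of 22 settings for progenitors and 10 of 22 for organoids, and the second was -0.29 relative to the median of all genes. Organoids and progenitors differed by 0.03 ± 0.23 (95% interval -0.49 to 0.54). The dim second probe set was called lower than tissue in progenitors (-1.01 ± 0.24, adjusted p = 0.00261) and in organoids (-0.81 ± 0.24, adjusted p = 0.00867). It passed the filter on dim probe sets by 0.005 log2 units in tissue medulla, where it was highest, so these calls are a description.

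The 10 genes fell into 4 orders of their stage means. Cdh1, Cdh2, Cdh6 and Cdh11 were highest in progenitors, then tissue, then organoids, with every step called by main probe set. Cdh16 descended from tissue to progenitors to organoids, with every step called. Cdh3, Cdh13, Cdh17 and Epcam were highest in progenitors, then organoids, then tissue. Among these 4, the organoid and progenitor means of Cdh3, Cdh13 and Cdh17 were neighbours that were not called, as were the organoid and tissue means of Epcam. For Cdh3 that step was near the threshold: its arrays did not overlap, its 95% interval left out 0, and it was called lower in 10 of 23 settings. Cdh4 was highest in tissue, with both cultures together below it. Of the 8 other tested probe sets, 8 had the main probe set's sign in progenitors against tissue, 7 in organoids against progenitors and 6 in organoids against tissue.

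Within tissue, none of the 10 genes was called between medulla and cortex, where 0.2% of all genes (26) were. How much cortex the tissue medulla samples held was not tested. By log2 level, 3 of the 10 did not overlap between the 2 regions, against 45.1% of all genes. Epcam had the largest difference, at 13.15 and 12.18 in medulla against 11.36 and 11.76 in cortex (1.10 ± 0.25, adjusted p = 0.137), and Cdh1 followed at 0.48 ± 0.16 (adjusted p = 0.424). The Epcam value depended on single arrays: over 23 settings it ran from 0.62 to 1.59, the highest being without the second tissue medulla array. The other Epcam probe set gave 0.24 ± 0.23 (adjusted p = 0.94).

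Within progenitors, none of the 10 was called between medulla and cortex, where 0.285% of all genes were, although 6 of the 10 did not overlap, against 42.9% of all genes. The largest difference was that of Cdh17, at 7.06 and 6.99 in medulla against 5.62 and 5.51 in cortex (1.46 ± 0.53, adjusted p = 0.794). For Cdh11 it was 0.82 ± 0.39. The dim second probe set of Cdh4 gave 6.40 and 6.14 in medulla against 4.74 and 4.37 in cortex (1.72 ± 0.34, adjusted p = 0.109). Region dependence of the step from tissue to progenitors was called for none of the 10, where it was called for 0.238% of all genes. For Cdh2 the step was 4.36 in medulla and 4.37 in cortex. For Epcam it was 0.55 ± 0.25 in medulla (adjusted p = 0.0733) and 1.57 ± 0.25 in cortex. The difference between these steps was -1.02 ± 0.35 (adjusted p = 0.555). Over 23 settings it ran from -1.51, without the second tissue medulla array, to -0.53. The other Epcam probe set gave -0.27 ± 0.33.

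Within organoids, 4 of the 10 genes were called between medulla and cortex, 2 higher and 2 lower, where 16.3% of all genes were called (7.1% higher and 9.19% lower). By log2 level, 6 of the 10 did not overlap, against 50.2% of all genes. Cdh2 was higher in medulla organoids, at 7.77 and 7.89, than in cortex organoids, at 5.88 and 5.91 (1.94 ± 0.18, adjusted p = 9.2e-05). Its second probe set gave 8.55 and 9.15 in medulla against 5.48 and 6.80 in cortex (2.71 ± 0.38, adjusted p = 0.00115). Both probe sets thus placed N-cadherin higher in the medulla-derived organoids. Cdh11 was higher in medulla organoids too (2.34 ± 0.39, adjusted p = 0.00303), and so was its other probe set (1.71 ± 0.39, adjusted p = 0.0139). Cdh6 was lower, at 6.72 and 7.18 in medulla against 8.29 and 8.49 in cortex (-1.44 ± 0.24, adjusted p = 0.00286), again with its second probe set (-1.29 ± 0.26, adjusted p = 0.00733). The main probe set of Cdh13 was lower (-1.19 ± 0.30, adjusted p = 0.0203), but its other 2 tested probe sets gave -0.09 and -0.90 and were not called, and the call was lost without either cortex organoid array or without the first medulla organoid array. Cdh1, Cdh16 and Epcam, the epithelial members, were not called between the organoid types.

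**Figure D4:**
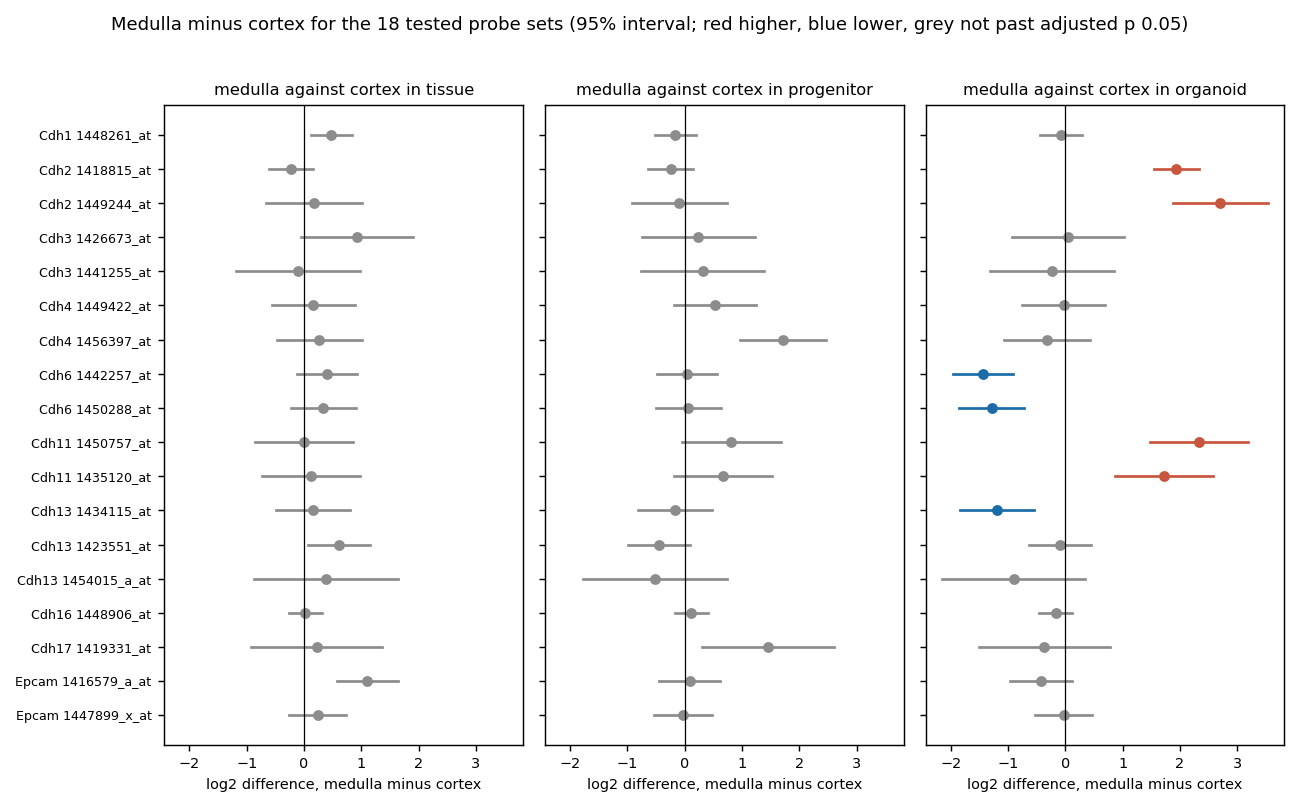
Medulla minus cortex log2 difference (horizontal axis) for the 18 tested probe sets in tissue, progenitors and organoids, with points for the estimates and bars for their 95% intervals, red for higher in medulla, blue for lower and grey for not called. Coloured points appear in the organoid panel alone: both probe sets of Cdh2 and of Cdh11 are higher, both of Cdh6 are lower, and 1 of the 3 of Cdh13 is lower.

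These organoid calls rest on the spread shared by all 6 groups. With the 4 organoid arrays alone in the fit, none of the 10 was called between medulla and cortex organoids, with adjusted p-values of 0.108 for Cdh2, 0.0722 for Cdh11, 0.169 for Cdh6 and 0.158 for Cdh13. The fibroblast marker sum also differed here, at 8737 to 8751 in medulla organoids against 2339 to 2789 in cortex organoids, and its part was not tested.

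The step from progenitors to organoids depended on region for 2 of the 10 genes, where 3.28% of all genes did (1.25% in the direction of Cdh2 and 2.02% in that of Cdh6). The Cdh2 step was -5.06 ± 0.18 in medulla and -7.24 ± 0.18 in cortex, and -3.24 ± 0.38 and -6.05 ± 0.38 for the second probe set. The cortex organoid arrays lay below their array medians for the main probe set, so the size of that step depends on the offset. The difference between these steps was 2.18 ± 0.25 (adjusted p = 0.0022), and 2.80 ± 0.54 for the second probe set (adjusted p = 0.0218). Cdh6 went the other way, with a step of -3.67 ± 0.24 in medulla and -2.19 ± 0.24 in cortex, a difference of -1.48 ± 0.34 (adjusted p = 0.0428). The second Cdh6 probe set gave -1.35 ± 0.37 (adjusted p = 0.077), and the Cdh6 call held in 11 of 23 settings. With the replicate number as a block, Cdh6 was no longer called (adjusted p = 0.0564). For Cdh11 the steps were -2.54 ± 0.39 in medulla and -4.06 ± 0.39 in cortex, and their difference of 1.52 ± 0.56 was not called (adjusted p = 0.178). The dim second probe set of Cdh4 was called for this region dependence (-2.03 ± 0.48, adjusted p = 0.0485). The main Cdh4 probe set was not (-0.56 ± 0.47, adjusted p = 0.6).

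Catenins and their adapters tie cadherin tails to actin. Of 14 catenins and cadherin adapters listed, 11 were tested. In progenitors against tissue 7 of them rose, 1 fell and 3 were not called, with a median of 0.48, so that 8 of 11 were called where 72.2% of all genes were. In organoids against progenitors 2 rose, 5 fell and 4 were not called, with a median of -0.46. There 28% of all genes were called higher and 44.2% lower. Beta-catenin (Ctnnb1) rose by 0.29 ± 0.10 in progenitors against tissue (adjusted p = 0.0224), a call lost with 75th percentile scaling. Its organoid step of -0.46 ± 0.10 (adjusted p = 0.00129) changed sign with quantile normalization. Alpha-catenin (Ctnna1) rose by 0.67 ± 0.08 in progenitors and fell by 0.83 ± 0.08 in organoids against progenitors, the second call being lost with quantile normalization. p120 catenin (Ctnnd1) rose by 0.85 ± 0.10 in progenitors. Plakoglobin (Jup), shared by cadherin junctions and desmosomes, had 0.19 ± 0.10 in progenitors against tissue (adjusted p = 0.103) and rose by 0.89 ± 0.10 in organoids against progenitors. The largest changes in the list were those of vinculin (Vcl), an actin-binding protein recruited to junctions under tension, which rose by 2.60 ± 0.10 in progenitors and fell by 2.21 ± 0.10 in organoids against progenitors. Afadin (Afdn), which links nectins to actin, followed with 1.26 ± 0.19 and -1.55 ± 0.19, both called. Pkp4, a catenin of the p120 family, fell by 1.36 ± 0.08 in progenitors and rose by 0.98 ± 0.08 in organoids against progenitors.

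Desmosome genes, whose products join keratin filaments across neighbouring epithelial cells through cadherins of their own, were mostly higher in progenitors than in tissue. Of 9 tested of 10 listed, 8 rose in progenitors against tissue and 1 was not called, with a median of 1.69, where 36.7% of all genes were called higher. In organoids against progenitors 7 fell, 1 rose and 1 was not called, with a median of -1.08. There 44.2% of all genes were called lower and 28% higher. In progenitors against tissue, the plakophilin Pkp1 rose by 3.68 ± 0.34 and periplakin (Ppl) by 3.01 ± 0.14. The desmosomal cadherin desmocollin (Dsc2) rose by 2.90 ± 0.15 there and Pkp3 by 1.94 ± 0.15. Pkp1 passed the filter on dim probe sets through progenitors alone, where it was highest, so its calls at both steps are a description. Against progenitors, organoids had Pkp1 at -2.42 ± 0.34, Pkp3 at -1.93 ± 0.15, Evpl (envoplakin) at -1.39 ± 0.31 and Ppl at -1.31 ± 0.14, all called. The 1 gene that rose there was desmoplakin (Dsp, 0.47 ± 0.15), a call lost with 75th percentile scaling. No desmosome gene was called between medulla and cortex at any stage, where 0.2% of all genes were in tissue, 0.285% in progenitors and 16.3% in organoids.

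**Figure D5:**
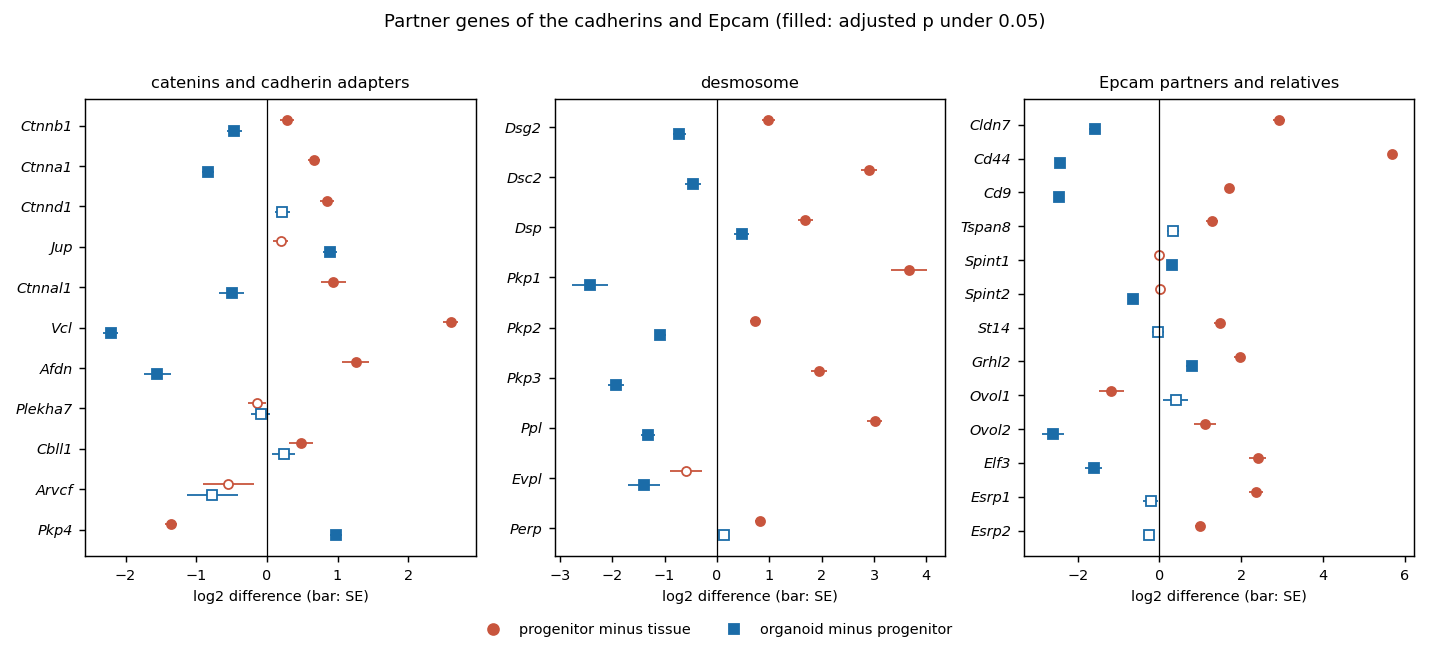
Log2 differences (horizontal axis) of the tested catenins and adapters, desmosome genes and Epcam partners in progenitors minus tissue (circles) and organoids minus progenitors (squares), with bars for the SE and filled symbols for calls. Most circles lie to the right of 0, and 7 of the 9 desmosome genes are called to the left of 0 in organoids against progenitors.

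Of 13 tested genes on the list of Epcam partners and relatives, 10 rose in progenitors against tissue, 1 fell and 2 were not called, with a median of 1.47. There 36.7% of all genes were called higher and 35.6% lower. In organoids against progenitors 2 rose, 6 fell and 5 were not called, with a median of -0.25, where 28% of all genes rose and 44.2% fell. Organoids against tissue had 9 higher and 4 lower, where 33% of all genes were called higher and 46.4% lower. Cd44, a hyaluronan receptor found in complexes with Epcam, had log2 levels of 12.90 and 12.67 in medulla and 12.91 and 12.97 in cortex progenitors, against 7.44 and 7.20 in tissue medulla and 7.07 and 6.94 in tissue cortex. That is a rise of 5.70 ± 0.10 (adjusted p = 1.61e-12), and the groups were far apart. Claudin-7 (Cldn7), which binds Epcam directly, rose by 2.93 ± 0.14 in progenitors and fell by 1.58 ± 0.14 in organoids against progenitors. The epithelial transcription factor Elf3 rose by 2.41 ± 0.21 and the epithelial splicing regulator Esrp1 by 2.36 ± 0.18 in progenitors against tissue. In organoids against progenitors, Ovol2, an epithelial zinc finger factor, fell by 2.61 ± 0.27 and the tetraspanin Cd9 fell by 2.45 ± 0.08.

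The transcription factors known to repress Cdh1 did not move together. Of 7 tested of 8 listed, 3 rose, 3 fell and 1 was not called in progenitors against tissue, and their median was 0.18. In that comparison 36.7% of all genes were called higher and 35.6% lower. Zeb1 had -2.79 ± 0.29, Zeb2 -2.33 ± 0.30 and Snai2 (Slug) -2.28 ± 0.37, all called, while Twist2 rose by 2.49 ± 0.37. Twist2 is also on the fibroblast marker list. Snai1, the factor best known for binding the E-box, had 0.18 ± 0.27 (adjusted p = 0.573). Between medulla and cortex organoids, 3 of the 7 were higher in medulla and 4 were not called, where 7.1% of all genes were called higher. Of the 10 fibroblast markers 8 were higher there too, and their part was not tested. Snai2 had log2 levels of 8.08 and 9.11 in medulla organoids against 5.81 and 4.27 in cortex organoids (3.55 ± 0.52, adjusted p = 0.00141). Zeb1 (1.99 ± 0.40, adjusted p = 0.00773) and Zeb2 (1.60 ± 0.42, adjusted p = 0.0276) were higher there too. Their direction was that of Cdh2 and Cdh11, and Cdh1 itself had 12.33 and 12.28 in medulla organoids against 12.42 and 12.34 in cortex organoids. The Snai2 probe set, like those of Ctnna1 and Adam15, has the suffix of probes that can also match other transcripts. Cortex organoid arrays lay below their array medians for Snai2, so the size of its difference depends on the offset.

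The other cadherins of the superfamily include adhesion and polarity proteins of many cell types. Of 29 listed, 27 were on the array and 14 were tested, and in progenitors against tissue 8 fell, 2 rose and 4 were not called, with a median of -0.97, where 35.6% of all genes were called lower. Of the same 14, 4 rose, 4 fell and 6 were not called in organoids against progenitors, with a median of -0.16. There 28% of all genes were called higher and 44.2% lower. Cdhr2 and Cdhr5, which join the tips of brush border microvilli, had differences of -6.46 ± 0.26 and -6.08 ± 0.40, and Cdh5, the endothelial VE-cadherin, fell by 3.27 ± 0.21. The protocadherin Pcdh19 rose by 2.66 ± 0.22 in progenitors and fell by 3.18 ± 0.22 in organoids against progenitors. Celsr2, a planar polarity cadherin, rose by 2.70 ± 0.11 and Clstn1 by 1.64 ± 0.14 in organoids against progenitors, while Pcdh1 fell by 2.71 ± 0.23.

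Nectins, the immunoglobulin adhesion proteins of the same junctions, were divided. Of 4, 2 rose, 1 fell and 1 was not called in progenitors against tissue, with Nectin2 at 1.89 ± 0.13, Nectin4 at 1.40 ± 0.37 and Nectin3 at -1.48 ± 0.21. In organoids against progenitors 2 fell, among them Nectin3 (-1.48 ± 0.21), and 2 were not called. Over all genes, 36.7% were called higher and 35.6% lower in progenitors against tissue, and 28% and 44.2% in organoids against progenitors. Of the 6 tested proteases that can cleave cadherins, 2 rose, 1 fell and 3 were not called in progenitors against tissue. The matrix metalloproteinase Mmp7 rose by 5.68 ± 0.47 and Mmp3 by 2.95 ± 0.29, and Adam15 fell by 1.15 ± 0.14. Mmp7 and Mmp3 passed the filter on dim probe sets through the cultures alone, where they were highest, so their calls against tissue are a description. In tissue, Mmp7 had log2 levels of 4.47 and 7.34 in medulla and 5.35 and 6.63 in cortex.

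The genes whose log2 levels ran most like those of 5 members over the 12 arrays were found by Pearson correlation among 12439 genes. For Cdh2 they were Parg (r = 0.993), Ppp1ca (0.986) and Pik3c2a (0.985). For Cdh6 they were Naa50 (0.994), Akt1 (0.992) and Ktn1 (0.992), and for Cdh1 they were Gsn (0.989), Plekhh3 (0.974) and Eif2ak3 (0.971). For Cdh16 they were Cyc1 (0.998), Fggy (0.996) and Abhd3 (0.995), and for Epcam they were Ehd4 (0.973), Cryab (0.962) and Irx2 (0.948). The 12 arrays fall into 3 stages, and arrays of a stage share its culture state, so these values describe a common stage pattern and carry no test.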

How the data were processed

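Total RNA was labelled with a 3' IVT kit, per the labels' protocols, and hybridised to Affymetrix arrays. The submitters' processing notes name MAS5 with no version, and none is known here. The table of values deposited by the authors is on the log2 scale. Unlogged, its 2% trimmed mean was 500 on each array, so the authors' values carry a common scaling. Of 45101 probe sets, 64 were controls, 34945 had 1 gene symbol, 932 had several and 9211 had none, by GEO's platform annotation. Of the single-symbol probe sets, 34741 matched a RefSeq gene by identifier.

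Values were unlogged, 15.2 was added (the 25th percentile) and log2 taken again. Differences were fitted with limma 3.58.1 in R 4.3.3 on 6 group means over 12 arrays, with a mean-variance trend, 6 residual degrees of freedom and a median prior of 5.90. P-values were two-sided and adjusted by Benjamini-Hochberg over 24203 probe sets at a threshold of 0.05. Stage differences are the mean of the medulla and cortex differences, and region dependence is the medulla difference minus the cortex difference. The number of arrays limits the precision, with 2 in each group. The fit was tested on simulated data in which 200 of 24203 probe sets carried known changes. In the data far more were called between stages and between organoid types, so the shares called there may differ from those simulated. Of simulated log2 differences of 1, 65% to 70% were called between stages and 35% to 42% between regions within a stage. For region dependence 9% and 12% were called, and 46% and 53% of differences of 2. A region difference that was not called may therefore have been missed.

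All 10 genes are named, and their other tested probe sets are given for part of the comparisons. Of each partner list, Ctnnb1, Ctnna1, Ctnnd1, Jup and up to 4 genes with the largest called differences are named, and of 5 members the 3 genes most like them. The members and lists were chosen with earlier results of these data known. Alternatives were another normalization, offset, filter, probe set rule, sample set or variance model, the replicate number as a block, and leaving out each array. Replicate numbers did not pair the arrays: over 15 pairs of groups, deviations of same-numbered arrays correlated at -0.1 to 0.04, and none was above 0.1.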

Additional observations from a re-analysis of the deposited data

Results flagged for a closer look

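The step from progenitors to organoids differed between medulla and cortex for Cdh2 and for Cdh6, by the interaction term of the limma fit. For Cdh2 the medulla step was less steep than the cortex step by 2.18 ± 0.25 on the log2 scale (adjusted p = 0.0022), and the call held in 23 of 23 settings, where the difference was between 1.55 and 2.49. For Cdh6 the medulla step was steeper, by -1.48 ± 0.34 (adjusted p = 0.0428), and the call held in 11 of 23 settings. Both genes had close progenitor levels in the 2 regions, and the organoid arrays carried the difference. The fibroblast marker sum was 8737 to 8751 in medulla organoids and 2339 to 2789 in cortex organoids, and its part was not tested.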

How the results depend on the processing

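Over 11 settings and 12 fits that left out 1 array, no called difference of the 10 genes changed sign. Calls for 10, 6 and 9 genes in progenitors against tissue, organoids against progenitors and organoids against tissue stayed at 8 to 10, 6 to 8 and 7 to 10. Region dependence of the organoid step, called for 2 genes, was called for 1 with no filter, with only the compared groups in the fit, without the variance trend and with the replicate block, and for 1 to 3 when an array was left out. It was 1 without either cortex organoid array, any progenitor array or either tissue medulla array, and 3 without the second medulla organoid array, where Cdh17 was added at -2.61. The causes were not tested. With the block, Cdh6 lost its region dependence call, Cdh4 in organoids against tissue lost its call (adjusted p = 0.0502) and Cdh3 in organoids against progenitors gained one (0.0297), and no other call of the 10 genes changed. With only the compared groups, 0 genes were called between medulla and cortex organoids, where 4 were called with all arrays. That setting has fewer samples in the fit. Leaving out the second tissue medulla array raised the count from 0 to 1, Epcam, for medulla against cortex in tissue and for region dependence of progenitors against tissue. With the mean of all probe sets per gene, the Cdh11 difference in progenitors against tissue was 0.61 (adjusted p = 0.0546), and Cdh3 in organoids against progenitors was 0.54. Cdh13 between organoid types was called in 18 of 23 settings, and Epcam in organoids against tissue in 4 of 23. Of 864 single differences in other settings, 837 kept their side of the threshold, and of 960 with an array left out, 926 did. In 9 and 30 of these cases the sign changed between values called neither with all arrays nor in that setting. Small organoid differences are the least certain, with 2 arrays in a group and dim probe sets for Cdh4 and Cdh17. The poly-A and Gapdh controls of the organoid arrays also lay far from the rest.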

Other observations

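Organoids set against tissue, rather than against progenitors, gave a different picture of the junction genes around the 10 members. Of the 9 tested desmosome genes, 5 were higher in organoids than in tissue, 2 were lower and 2 were not called, where 33% of all genes were called higher and 46.4% lower. Their median log2 difference was 0.95, against -0.28 over all genes. Dsc2 was higher by 2.44 ± 0.15, desmoplakin (Dsp) by 2.16 ± 0.15 and Ppl by 1.70 ± 0.14, and Evpl fell by 1.98 ± 0.31. Plakoglobin (Jup, 1.08 ± 0.10) and p120 catenin (Ctnnd1, 1.07 ± 0.10) were higher in organoids, and Arvcf, a relative of p120, fell by 1.32 ± 0.36. Mmp7, which cleaves E-cadherin, was higher in organoids by 7.12 ± 0.47, a description, as it passed the filter on dim probe sets through the cultures alone. Ncstn, a subunit of the gamma-secretase that cuts cadherin stumps, was higher by 2.73 ± 0.15. The epithelial transcription factor Grhl2 was higher by 2.76 ± 0.13. All of these were called by limma, and the organoid arrays' control probe sets differed from those of tissue as described above.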
